A study of Homo sapiens with 6 samples.

Results

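Axon guidance ligands and receptors were examined in SH-SY5Y cells, a human neuroblastoma line that is widely used as a neuron-like model and whose labels call it a neuronal progenitor. The genes were chosen by symbol among protein-coding genes, as the semaphorins of classes 3 to 7, plexins, neuropilins, ephrins, Eph receptors, slits, Robo receptors, netrins, UNC5 receptors and *DCC*, which gave 69 genes of the 67060 in the count table, 35 ligands and 34 receptors. Infection was with an adenovirus that drives Flag-tagged mouse *Esrrg* from the CMV promoter (Flag-ERRg, replicates 2, 3 and 4) or with a GFP adenovirus (GFP, replicates 1, 3 and 4), and RNA was isolated after 24 h. ERRγ, the product of *ESRRG*, is an orphan nuclear receptor that activates metabolic genes. Both groups were therefore infected, uninfected cells are not part of the comparison, and all libraries come from the same line, so p-values measure only the spread between these 3 libraries per group.

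Growing axons are steered by ligands that attract or repel them. Netrins attract through DCC and repel through UNC5 receptors, slits repel through Robo receptors, secreted class 3 semaphorins act through neuropilins paired with plexins while membrane-bound semaphorins bind plexins directly, and ephrins signal in both directions through contact with Eph receptor tyrosine kinases. In the sympathetic and adrenal lineage from which neuroblastoma arises, the same families guide migrating neural crest cells, and DCC and the UNC5 receptors are also known as dependence receptors, which can signal cell death when their ligand is absent.

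The libraries held 24969759 to 40859666 reads assigned to genes. Reads counted on human *ESRRG* numbered 2357, 2796 and 2876 with GFP and 15228, 25994 and 26497 with Flag-ERRg, which was 87.0 ± 3.40 against 706 ± 119 counts per 1000000 (CPM, scaled with TMM factors, mean ± SD, n = 3 per group here and below), so the labels and the targeted gene went the same way. The virus carries the mouse gene, and its reads cannot be told apart in these counts from those of the cells' own *ESRRG*. The size of the difference is therefore not a measure of either. Flag-ERRg replicate 2 stood apart: the chi-square per degree of freedom between libraries was 77.2 and 82.2 for replicate 2 against replicates 3 and 4, 8.02 between those, and 3.99 to 10.6 within GFP. Some reads were matched to no gene feature in the counting, and their part is called the unassigned-read share here. It was 51.3 to 52.2% of all reads with GFP and 46.6, 31.6 and 29.5% with Flag-ERRg replicates 2, 3 and 4, so this share moved with the treatment. Such reads may include introns of annotated genes, and where they lie was not examined. Of markers of adrenergic neuroblastoma cells, *TH* was listed at 0 in all 6 libraries, and *DBH* had 311, 361 and 390 counts with GFP and 52, 58 and 63 with Flag-ERRg. Of 7 tested, 1 was called higher, *PHOX2A* (log2 fold change 0.81), and 2 lower, *DBH* (−2.64) and *GATA2* (−1.08), while 4 were not called. A 0 such as that of *TH* need not mean no transcript, since 3053 of 19920 protein-coding genes were listed at 0. Mesenchymal markers such as *PRRX1* and *VIM* were abundant in both groups, and neither of these was called. Of 10 tested, 2 were called higher, *FOSL1* (4.41-fold) and *FOSL2* (2.73-fold), and 1 lower, *YAP1* (1.59-fold), while 7 were not called. Of 6 fibroblast markers 4 were called lower, *PDGFRA* among them (log2 fold change −1.53), and their summed level was 3686 to 3818 CPM with GFP and 3067 to 3329 with Flag-ERRg. Of 5 tested Schwann cell markers 1 was called lower, *FOXD3* was listed at 0, and the sum was 7.40 to 8.05 against 5.05 to 5.99 CPM. Beside these counts, 17.3% of all tested genes were called higher and 16.8% lower (25.9% and 12.4% of protein-coding ones). The part of these markers in the results below was not tested, and in bulk RNA fewer cells of a type and less RNA per cell cannot be told apart.

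The guidance genes moved in both directions, with a very large rise of 2 receptors, *EPHB1* and *UNC5A*, and changes of about 3-fold or less in the others. Calls rest on edgeR's quasi-likelihood test with Benjamini-Hochberg (BH) adjustment over all 24500 tested genes, and a gene was called where the adjusted p was below 0.05 and the fold change 1.5 or more. Of the 69 genes, 59 had enough counts to be tested, and 12 were called higher and 8 lower with Flag-ERRg, while 39 were not called. That is 33.9% called, beside 34.1% of all tested genes and 38.3% of tested protein-coding genes, so the share of guidance genes called was near the background. By direction, 17.3% of all tested genes were called higher and 16.8% lower, against 25.9% and 12.4% of the protein-coding genes. The median log2 fold change of the guidance genes was 0.0844, against −0.10 for all tested genes and 0.12 for protein-coding ones.

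The genes called higher were the receptors *EPHB1*, *UNC5A*, *EPHA2*, *DCC*, *PLXNB2* and *NRP2* and the ligands *SEMA5B*, *NTN4*, *EFNA4*, *EFNB2*, *EFNA3* and *EFNA1*. The genes called lower were the receptors *UNC5D*, *ROBO1* and *UNC5B* and the ligands *NTN5*, *SEMA6B*, *SEMA3B*, *SEMA4A* and *SEMA3F*. Among the ligands 6 of 32 tested were called higher and 5 lower, and among the receptors 6 of 27 were called higher and 3 lower. Without the fold limit, 32 of the 59 passed the adjusted p (19 upward, 13 downward), beside 47.8% of all tested genes and 60% of protein-coding ones. The 3 libraries of each group did not overlap in normalized CPM for 44 of the 59 genes (74.6%), beside 58.1% of all tested genes and 70.3% of protein-coding ones. These splits depended on the scaling: with library size alone, which moved the median of all genes from −0.10 to −0.42, 6 guidance genes were called higher and 16 lower. Without Flag-ERRg replicate 2 the counts were 16 higher and 7 lower.

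**Figure D1:**
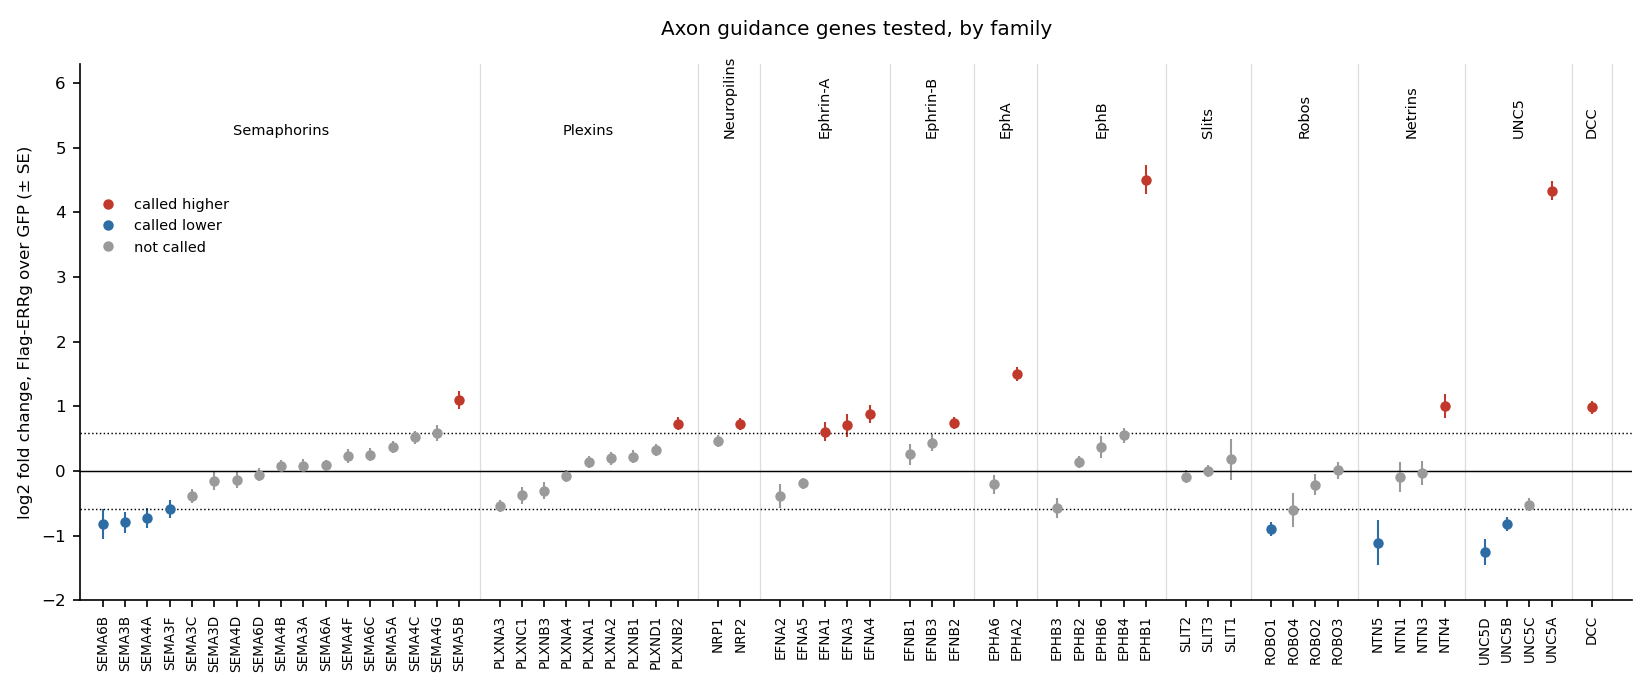
The log2 fold change of Flag-ERRg over GFP is plotted for each of the 59 tested guidance genes, grouped by family, with the standard error as a bar, the 1.5-fold limits as dotted lines and calls in colour. *EPHB1* at 4.51 and *UNC5A* at 4.34 stand far above all others, of which *EPHA2* at 1.503 is the highest, and the lowest is *UNC5D* at −1.26.

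Of the 5 netrin receptors 4 were called, *UNC5A* and *DCC* higher and *UNC5B* and *UNC5D* lower, beside 34.1% of all tested genes and 38.3% of protein-coding ones. *UNC5A* (ENSG00000113763, GRCh38 chr5:176810519-176880898, plus strand) encodes a repulsive netrin receptor. It had 57, 54 and 62 counts with GFP replicates 1, 3 and 4 and 874, 1303 and 1454 with Flag-ERRg replicates 2, 3 and 4, or 2.02, 1.75 and 1.87 against 32.7, 38.7 and 42.7 CPM. All Flag-ERRg libraries lay far above all GFP libraries, and the change was 20.2-fold (log2 4.34, SE 0.15, edgeR quasi-likelihood BH-adjusted p = 9.2e-08). It ranked 19 of 13746 tested protein-coding genes by fold change. *HK3*, a hexokinase gene that shares 0.695% of the *UNC5A* exon bases on the opposite strand, was called higher as well (log2 2.83, edgeR BH-adjusted p = 1.4e-05). *HK3* was named after its counts had been seen. It had 13 to 19 counts with GFP and 90 to 128 with Flag-ERRg, fewer than *UNC5A* in every library, and the strand setting of the counting is not given in the sources used here.

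*DCC* (ENSG00000187323), the attractive netrin receptor, had 72.0, 66.3 and 67.0 CPM with GFP and 148, 136 and 123 with Flag-ERRg. The groups did not overlap, and replicate 2, which was nearest to GFP for most genes called higher, was the highest here. The rise was 1.98-fold (log2 0.99, SE 0.0998, edgeR BH-adjusted p = 5.7e-05).

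The other UNC5 receptors went the opposite way. *UNC5B*, a netrin receptor also known from blood vessel branching, had 224, 229.5 and 222 CPM with GFP and 117, 121 and 144 with Flag-ERRg, a 1.77-fold fall with no overlap (log2 −0.82, SE 0.11, edgeR BH-adjusted p = 1.9e-04). *UNC5D*, which also binds the adhesion protein FLRT2, had 231, 170 and 194 counts with GFP and 67, 108 and 83 with Flag-ERRg, a 2.39-fold fall after scaling (log2 −1.26, SE 0.20, edgeR BH-adjusted p = 6.1e-04). *UNC5C*, by far the most abundant of the family by CPM, had 667, 607 and 659 CPM with GFP and 466, 441 and 442 with Flag-ERRg. Its groups did not overlap and its adjusted p was 0.0019 in edgeR's quasi-likelihood test, but its 1.43-fold difference missed the fold limit, so it was not called.

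Per kb of exon, the measure by which levels of different genes are compared here, the 4 UNC5 genes together summed to 91.3 to 96.4 CPM per kb with GFP and 68.3 to 72.6 with Flag-ERRg. *UNC5A* made up 0.443 to 0.486% of that sum with GFP and 11.1 to 13.6% with Flag-ERRg. *UNC5C* remained the largest contributor, with 62.2 to 64.9% and 57.0 to 63.7%. The family sum was thus lower in every Flag-ERRg library while 1 low member rose into its visible part.

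Of the netrins, *NTN4*, a laminin-binding netrin of basement membranes, had 44, 52 and 62 counts with GFP and 94, 99 and 131 with Flag-ERRg and rose 2.01-fold (log2 1.01, SE 0.19, edgeR BH-adjusted p = 0.0017). *NTN5*, a little-studied netrin, had 20, 15 and 22 counts with GFP and 7, 8 and 12 with Flag-ERRg and fell 2.15-fold (log2 −1.11, SE 0.34, edgeR BH-adjusted p = 0.022). Neither pair of groups overlapped, but *NTN5* rests on few counts and lost its call without GFP replicate 1, GFP replicate 4, Flag-ERRg replicate 2 or Flag-ERRg replicate 3. *NTN1*, the classical netrin that binds DCC and UNC5 receptors, was low in both groups, with 40, 48 and 45 counts against 34, 56 and 38, overlapping and not called (log2 −0.0932, SE 0.23).

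**Figure D2:**
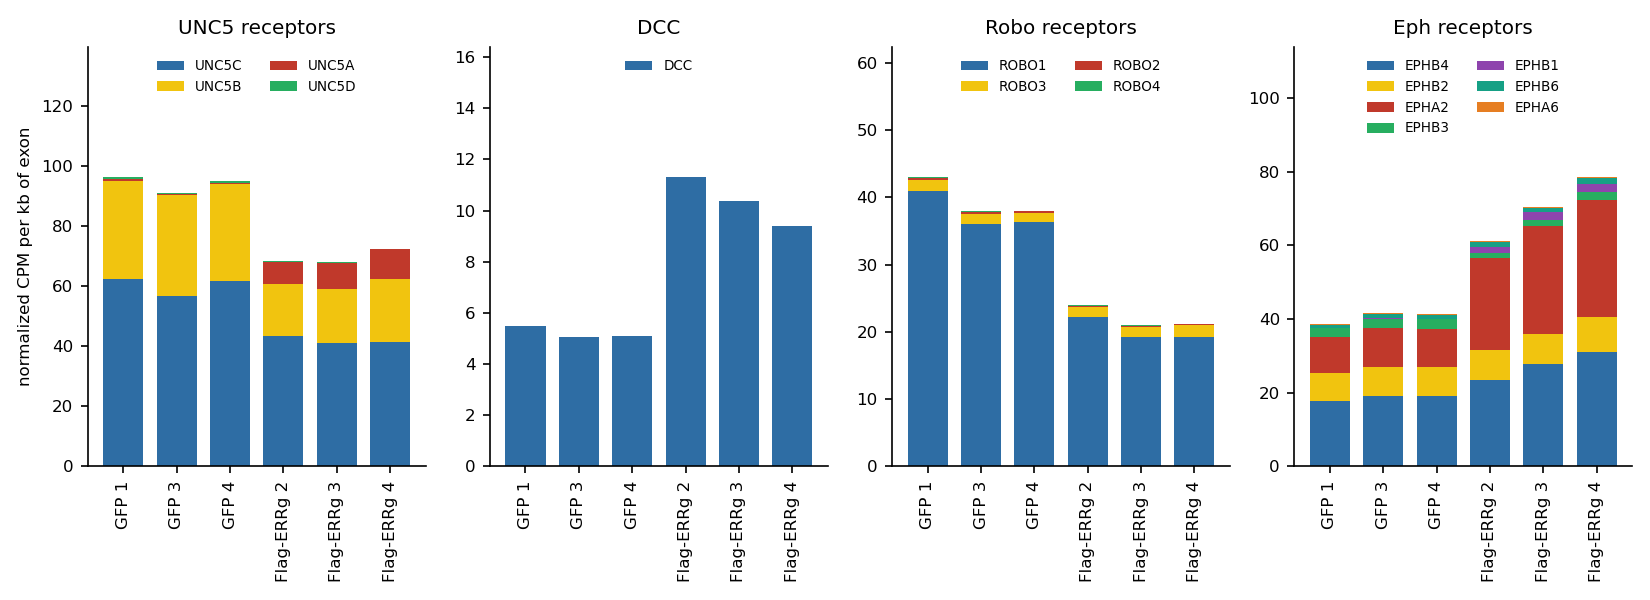
Stacked bars give the normalized CPM per kb of exon of the UNC5, DCC, Robo and Eph receptors in each library, with a separate axis from 0 for each family. The UNC5 sum falls from 91.3 or more to 72.6 or less while *UNC5A* appears, the Robo sum falls from 37.9 or more to 23.9 or less, and the Eph sum rises from 41.6 or less to 61.2 or more.

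*EPHB1* (ENSG00000154928, GRCh38 chr3:134795260-135260467, plus strand) encodes a receptor for B-class ephrins that is known for turning retinal axons away from the midline at the optic chiasm. It had 17, 10 and 21 counts with GFP and 283, 412 and 439 with Flag-ERRg, or 0.603, 0.323 and 0.634 against 10.6, 12.2 and 12.9 CPM. The gene was low in every GFP library and well detected in every Flag-ERRg library, a 22.7-fold rise (log2 4.51, SE 0.22, edgeR quasi-likelihood BH-adjusted p = 7.6e-07) that ranked 17 of 13746 protein-coding genes.

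*EPHA2* (ENSG00000142627), the A-class Eph receptor best known from epithelial and tumour cells, had 39.6, 43.9 and 42.2 CPM with GFP and 103, 120.7 and 132 with Flag-ERRg. It rose 2.83-fold without overlap (log2 1.503, SE 0.11, edgeR BH-adjusted p = 9.7e-06). *EPHB4*, a receptor for ephrin-B2, had 115, 123 and 123 CPM with GFP and 152, 178 and 199.95 with Flag-ERRg, which missed the fold limit (log2 0.55, SE 0.11, edgeR BH-adjusted p = 0.0025). *EPHB3* also differed without being called (log2 −0.57, SE 0.15, edgeR BH-adjusted p = 0.011), in the opposite direction.

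Of the 7 Eph receptors tested, 2 were called higher and 0 lower by edgeR, while 3 passed the adjusted p upward and 1 downward, *EPHB3*, which was also the only one below an unadjusted p of 0.05 downward. DESeq2 called 3 higher and 0 lower, and *EPHB3* was called lower in 10 of the 20 alternative settings. Over all tested genes 17.3% were called higher, and 25.9% of protein-coding ones. The Eph receptors together summed to 38.7 to 41.6 CPM per kb with GFP and 61.2 to 78.6 with Flag-ERRg. *EPHB4* was the largest part of that sum with GFP, at 46.0 to 46.1%, and stood at 38.5 to 39.5% with Flag-ERRg. *EPHA2* went from 24.6 to 25.5% to 40.6 to 41.3%, and so took the first place. *EPHB1* went from 0.133 to 0.266% to 2.80 to 2.97%, a small part in spite of its fold change.

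The ephrins, the membrane-bound ligands of these receptors, were called higher in 4 of 8 cases and lower in 0 by edgeR, and DESeq2 gave the same counts, beside 17.3% of all tested genes and 25.9% of protein-coding ones called higher. Of the 8, 5 passed the adjusted p, all upward, and 1 was below an unadjusted p of 0.05 downward. *EFNA4* had 14.6, 16.6 and 17.5 CPM with GFP and 24.8, 28.8 and 35.8 with Flag-ERRg (log2 0.88, SE 0.14, edgeR BH-adjusted p = 6.2e-04). *EFNB2*, a ligand of EPHB1 and EPHB4 that also marks arteries, had 29.3, 29.3 and 28.0 CPM with GFP and 44.8, 50.9 and 49.0 with Flag-ERRg (log2 0.74, SE 0.0922, edgeR BH-adjusted p = 1.6e-04). *EFNA1*, the main ligand of EPHA2, had 6.88, 8.54 and 7.67 CPM with GFP and 9.76, 12.3 and 13.2 with Flag-ERRg (log2 0.61, SE 0.15, edgeR BH-adjusted p = 0.0059). In each of these genes replicate 2 was the lowest Flag-ERRg library and still lay above all GFP libraries. *EFNA3*, another A-class ligand, had 4.26, 5.63 and 4.62 CPM with GFP and 6.21, 8.11 and 9.33 with Flag-ERRg (log2 0.71, SE 0.18, edgeR BH-adjusted p = 0.0081).

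None of these 4 ephrin calls was kept when libraries were scaled by size alone, which also ended the calls of *PLXNB2* and *NRP2*, and the calls of *EFNA1* and *EFNA3* also depended on single libraries. *EFNA1* was not called without GFP replicate 1, Flag-ERRg replicate 3 or Flag-ERRg replicate 4, and *EFNA3* not without Flag-ERRg replicate 4. Of the 20 alternative settings, *EFNA1* lost its call in 12 and *EFNA3* in 9. These included the GC and length correction and the unassigned-read share as a model term. *EFNA2*, not called in the main fit (log2 −0.38, SE 0.19, edgeR BH-adjusted p = 0.12), was called lower under both of these and with library size alone. Counts of some ephrins are also uncertain where genes overlap. *EFNA3* shares 43.9% and *EFNA4* 15.0% of its exon bases with the readthrough gene *EFNA4-EFNA3*, which had 0 counts in all libraries, and *EFNB2* shares 36.4% with a gene on the opposite strand, ENSG00000284966, which was not called (log2 −0.0962, SE 0.21).

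Of 17 semaphorins tested, 1 was called higher and 4 lower by edgeR. Over all tested genes 17.3% were called higher and 16.8% lower (25.9% and 12.4% of protein-coding ones). DESeq2 called 3 semaphorins higher and 4 lower, but these 4 included *SEMA3G*, which edgeR did not test, and left out *SEMA3F*. At edgeR's adjusted p alone, 4 passed upward and 5 downward. *SEMA5B*, a transmembrane semaphorin with thrombospondin repeats, was the gene called higher, with 4.79, 4.98 and 4.62 CPM with GFP and 9.35, 9.51 and 11.8 with Flag-ERRg, a 2.13-fold rise without overlap (log2 1.09, SE 0.14, edgeR BH-adjusted p = 1.8e-04). The genes called lower were the secreted *SEMA3B* and *SEMA3F* and the membrane-bound *SEMA4A* and *SEMA6B*, all at modest levels.

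*SEMA3B*, a class 3 ligand also known as a tumour suppressor candidate, had 8.58, 7.02 and 6.86 CPM with GFP and 4.30, 3.71 and 4.93 with Flag-ERRg (log2 −0.79, SE 0.16, edgeR BH-adjusted p = 0.0024). *SEMA3F*, the classical ligand of neuropilin 2, had 24.9, 27.4 and 28.4 CPM with GFP and 15.4, 16.1 and 22.2 with Flag-ERRg (log2 −0.59, SE 0.14, edgeR BH-adjusted p = 0.0061). Neither gene's groups overlapped, but *SEMA3F* lies just inside the fold limit and was not called without GFP replicate 3, GFP replicate 4, Flag-ERRg replicate 2 or Flag-ERRg replicate 3. *SEMA4A*, which binds plexins of the B and D classes, had 7.45, 7.34 and 6.89 CPM with GFP and 4.71, 3.68 and 4.73 with Flag-ERRg (log2 −0.73, SE 0.15, edgeR BH-adjusted p = 0.0025). *SEMA6B*, a ligand of A-class plexins, had 61, 57 and 83 counts with GFP and 30, 35 and 52 with Flag-ERRg (log2 −0.82, SE 0.23, edgeR BH-adjusted p = 0.015), and its call was lost without GFP replicate 4 or Flag-ERRg replicate 3.

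The most abundant semaphorin, *SEMA3C*, which signals through both neuropilins, was not called, with 387, 361 and 353 CPM with GFP and 310.4, 274 and 259 with Flag-ERRg (log2 −0.38, SE 0.11, edgeR BH-adjusted p = 0.013). *SEMA3A*, the classical growth cone collapsing ligand, overlapped between groups, with 162 to 172 CPM with GFP and 166 to 195 with Flag-ERRg. *SEMA4C* and *SEMA4G* differed upward without reaching the fold limit (log2 0.52 and 0.58, edgeR BH-adjusted p = 0.0021 and 0.0029). *SEMA4G* shares 28.0% of its exon bases with *MRPL43* on the opposite strand, which was itself called higher (log2 1.14, SE 0.19, edgeR BH-adjusted p = 7.9e-04).

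The neuropilins, co-receptors of class 3 semaphorins, were both higher beyond the adjusted p. *NRP2* had 151, 153 and 148 CPM with GFP and 246, 244 and 261 with Flag-ERRg, a 1.66-fold rise (log2 0.73, SE 0.0904, edgeR BH-adjusted p = 1.5e-04). *NRP1* had 225, 228 and 229 CPM with GFP and 319, 319 and 307 with Flag-ERRg and missed the fold limit (log2 0.47, SE 0.0910, edgeR BH-adjusted p = 0.0018). Both showed no overlap and little spread within groups. *NRP2* was called higher while its ligand *SEMA3F* was called lower. Of the 20 alternative settings, *SEMA3F* lost its call in 10, DESeq2 among them, and *NRP2* in 3.

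Among the 9 plexins, the signalling receptors for semaphorins, *PLXNB2*, a receptor for class 4 semaphorins, was the single gene called. That is 11.1%, beside 34.1% of all tested genes and 38.3% of protein-coding ones. The call of *PLXNB2* was lost in 6 of the 20 alternative settings, the GC and length correction and the unassigned-read share as a model term among them. It had 201, 204 and 202 CPM with GFP and 308, 332 and 371 with Flag-ERRg (log2 0.73, SE 0.10, edgeR BH-adjusted p = 2.9e-04), and went from 31.7% to between 39.5 and 42.5% of the plexin sum per kb. The A-class plexins, which pair with neuropilins, were not called by edgeR or DESeq2, and 1 of 4, *PLXNA3*, was below an unadjusted p of 0.05. *PLXNA2*, the most abundant of them, had 401, 407 and 408 CPM with GFP and 476, 437 and 483 with Flag-ERRg (log2 0.20, SE 0.0983, edgeR BH-adjusted p = 0.12). *PLXNA3* had 46.4, 44.3 and 43.1 CPM with GFP and 30.7, 28.5 and 32.8 with Flag-ERRg (log2 −0.54, SE 0.0940, edgeR BH-adjusted p = 9.9e-04), short of the fold limit, and was called lower in 5 of the 20 alternative settings. The differences of *PLXNA1* (log2 0.14, SE 0.0930) and *PLXNA4* (log2 −0.0685, SE 0.0929) did not pass the test, and their signs and that of *PLXNA2* depended on the processing.

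**Figure D3:**
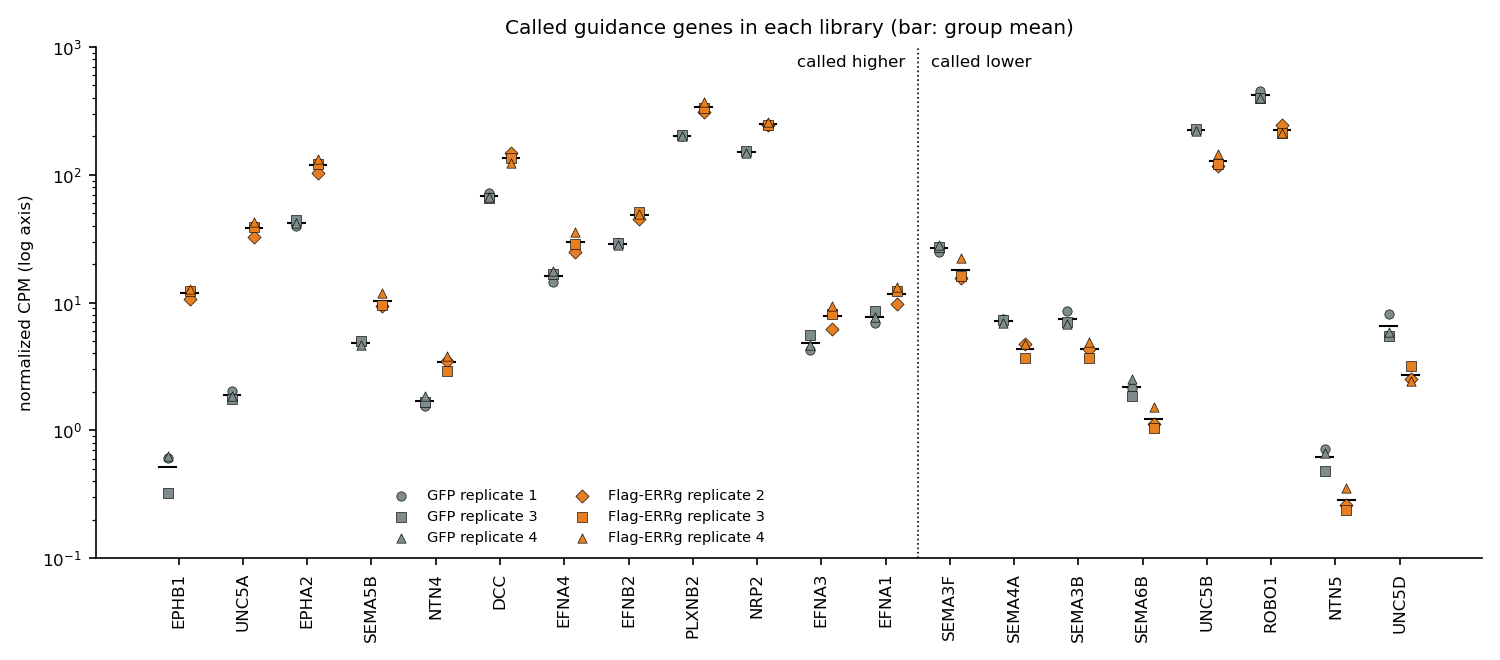
The normalized CPM of the 20 called guidance genes is plotted for each library on a log axis, with GFP in grey, Flag-ERRg in orange, a marker shape for each replicate and the group mean as a bar. No gene has overlapping groups, which the calling rule itself favours, and 70.3% of tested protein-coding genes had none either. *EPHB1*, at 0.323 to 0.634 with GFP and 10.6 to 12.9 with Flag-ERRg, and *UNC5A* show the widest gaps.

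*ROBO1* (ENSG00000169855), the main slit receptor of these cells, had 453, 398 and 402 CPM with GFP and 246, 213 and 213 with Flag-ERRg. It fell 1.87-fold without overlap (log2 −0.90, SE 0.11, edgeR BH-adjusted p = 1.3e-04). It made up 95.02 to 95.6% of the Robo sum per kb with GFP and 90.6 to 92.9% with Flag-ERRg, and that sum went from 37.9 or more to 23.9 or less CPM per kb. *ROBO2*, the other broadly used neuronal slit receptor, was low, with 105, 117 and 112 counts with GFP and 80, 110 and 107 with Flag-ERRg, and was not called (log2 −0.21, SE 0.16, edgeR BH-adjusted p = 0.30).

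Their ligands were not called: of 3 slits 0 were called by edgeR or DESeq2, and 0 were below an unadjusted p of 0.05. *SLIT1* was low, at 22 to 42 counts, and the other two were abundant. *SLIT2* had 748, 745 and 728 CPM with GFP and 756, 680 and 659 with Flag-ERRg, and *SLIT3* had 343, 339 and 334 CPM with GFP and 326, 331 and 364 with Flag-ERRg. The groups overlapped for both, with log2 fold changes of −0.0842 (SE 0.11) and 0.00412 (SE 0.0972). *SLIT2* had the highest level per kb of all guidance genes in both groups, at 66.9 ± 0.994 CPM per kb with GFP and 63.1 ± 4.61 with Flag-ERRg. With GFP it was followed by *UNC5C* at 60.3 ± 3.07 and *SEMA3C* at 60.1 ± 2.91, which were within each other's spread. With Flag-ERRg it was followed by *PLXNB2* at 46.3 ± 4.37 and *SEMA3C* at 46.1 ± 4.31, again within each other's spread, while *ROBO1* went from place 4 to place 12 and *EPHA2* from place 16 to place 6.

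The 10 guidance genes that were not tested had too few counts. *EPHA1*, *EPHA3*, *EPHA5*, *EPHA7* and *SEMA7A* were listed at 0 in all libraries, and 3 counts, the floor used for a count of 0, correspond to 0.0880 to 0.112 CPM per library, for counting error only. An entry of 0 need not mean no transcript here, since 3053 of 19920 protein-coding genes in the table were at 0, and of the 10 genes nearest to each, 5 were at 0 for *SEMA7A*, 4 for *EPHA1*, 2 for *EPHA7*, 1 for *EPHA3* and 0 for *EPHA5*. *EPHA4* had 2 counts in all, *EPHA8*, *EPHA10* and *SEMA3E* had at most 11 in any library, and *SEMA3G* had 11, 9 and 17 counts with GFP and 2, 4 and 1 with Flag-ERRg. *SEMA3G* was called lower without the filter on low counts, by DESeq2, and without GFP replicate 3 or any 1 of the Flag-ERRg libraries. *EPHB6*, which was tested and not called, is uncertain because 83.1% of its 31-base words also stand on alternate contigs of GRCh38.

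Calls of 6 of the 20 genes, *EPHB1*, *UNC5A*, *EPHA2*, *SEMA5B*, *NTN4* and *UNC5D*, were the same under all 20 alternative settings. *DCC*, *ROBO1* and *UNC5B* lost their calls only with a 2-fold limit. Replicate 2 lay between the GFP libraries and the other Flag-ERRg libraries for 9 of the 12 genes called higher, beside 87.8% of all genes called higher, and for 1 of the 8 called lower, beside 69.2% of all genes called lower. With the unassigned-read share as a model term, 8 guidance genes were called higher and 7 lower, and after correcting for GC content and length 10 were called higher and 13 lower.

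**Figure D4:**
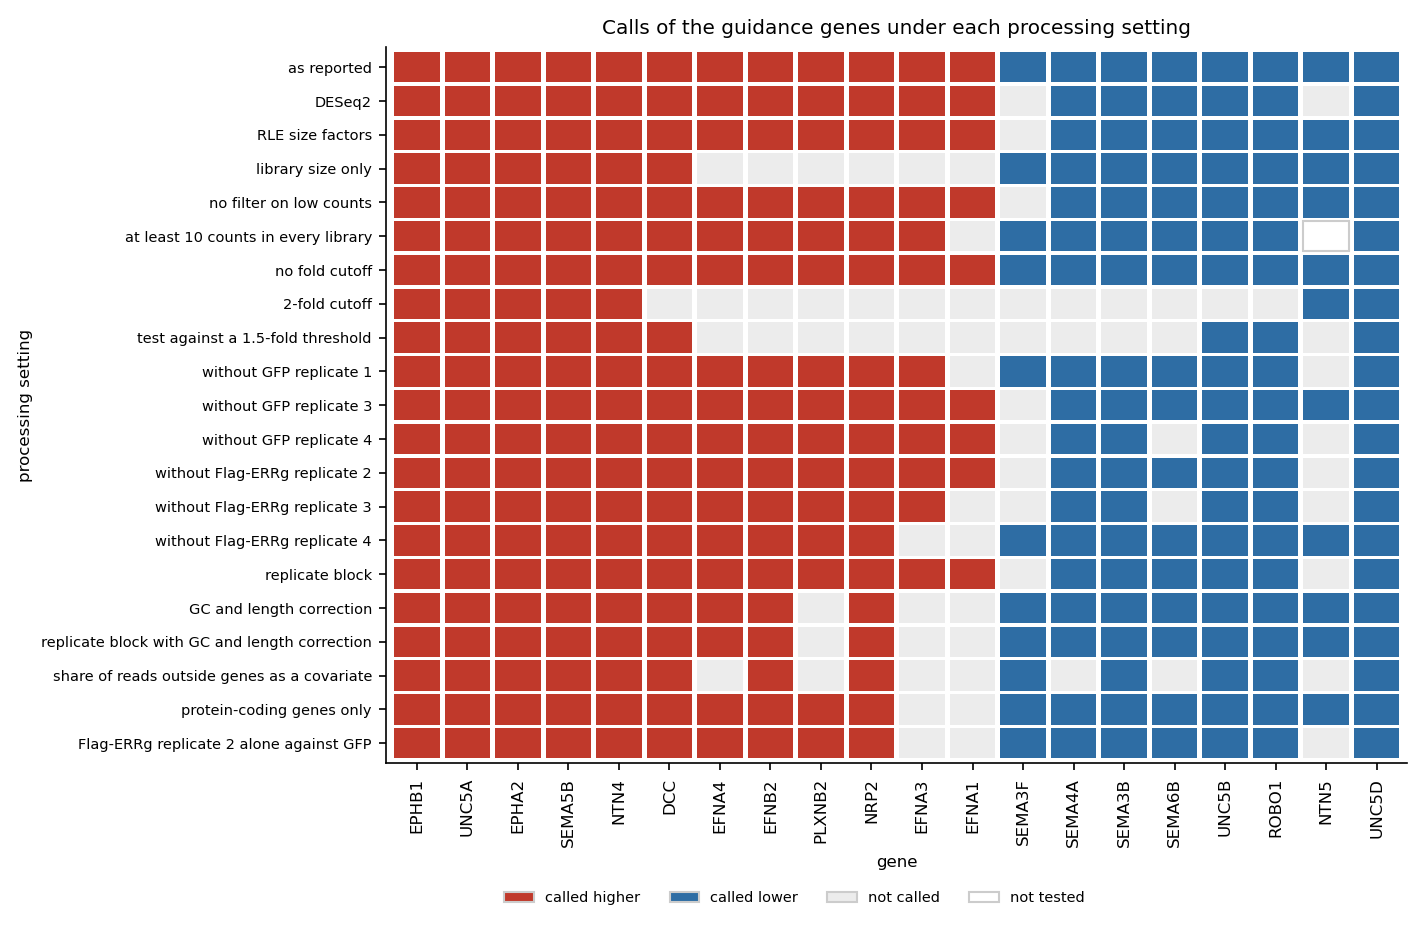
Each column is 1 of the 20 called guidance genes and each row a way of processing the data, coloured by the call it gave. The columns of *EPHB1*, *UNC5A*, *EPHA2*, *SEMA5B*, *NTN4* and *UNC5D* keep their colour in every row, while *EFNA1*, *SEMA3F*, *EFNA3* and *NTN5* lose their call in the most rows.

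Intracellular partners of the guidance receptors were also read from the same fit, as a list of 48 genes that covers collapsin response mediators, kinases and actin regulators, among others. All were tested, and 9 were called higher and 3 lower (25.0%, beside 34.1% of all tested and 38.3% of protein-coding genes), with a median log2 fold change of 0.20. Of those called, 4 had the largest changes. *NGEF*, an ephexin that acts downstream of Eph receptors, had 23, 44 and 57 counts with GFP and 91, 145 and 179 with Flag-ERRg (log2 1.70, SE 0.27, edgeR BH-adjusted p = 5.8e-04). *VASP*, an actin filament elongation factor, was higher by 1.39 (SE 0.15), and *CDK5*, a neuronal kinase of growth cone collapse, by 1.19 (SE 0.18) on the log2 scale. *DPYSL4*, a collapsin response mediator, was higher by 0.87 (SE 0.14) but lost its call in 7 of the 20 alternative settings. Its relative *DPYSL5*, on the same list, was called lower (log2 −0.85, SE 0.15, edgeR BH-adjusted p = 0.0010), while *DPYSL2*, *DPYSL3* and *CRMP1* were not called.

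The sequences upstream of *EPHB1* and *UNC5A* are shown because these genes had the largest changes. They come from the RefSeq promoter table (GRCh38.p14), which covers 250 bases before to 50 after a transcript start, and are on the plus strand, 5′ to 3′. Capitals mark CCAAT and CCGCCC (a GC box core), or their reverse complements.
*EPHB1*, chr3:134795010-134795259: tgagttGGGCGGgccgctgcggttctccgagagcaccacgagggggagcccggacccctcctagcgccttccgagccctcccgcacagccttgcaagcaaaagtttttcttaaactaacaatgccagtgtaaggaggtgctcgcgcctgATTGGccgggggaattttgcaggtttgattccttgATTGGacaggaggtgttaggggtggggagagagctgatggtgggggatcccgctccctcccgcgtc
*UNC5A*, chr5:176810309-176810518: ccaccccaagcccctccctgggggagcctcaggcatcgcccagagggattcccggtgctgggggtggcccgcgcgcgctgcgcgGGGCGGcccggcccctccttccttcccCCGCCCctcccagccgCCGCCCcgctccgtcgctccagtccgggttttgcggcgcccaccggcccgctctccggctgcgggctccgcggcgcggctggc
The *EPHB1* stretch holds CCAAT in the reverse orientation at 101 and 66 bases before the start, and the *UNC5A* stretch holds only CCGCCC, at 166, 139 and 123 bases before it.

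ERR receptors are known to bind the extended response element TNAAGGTCA. Searched on both strands, it stood in 334 of 35116 promoter windows of 300 bases (0.951%), and in 0 of the 91 windows of the 59 guidance genes that have one in the table, *EPHB1* and *UNC5A* included. The shorter AGGTCA, which the extended site contains, was in 13.8% of all windows and 9.89% of those of guidance genes. CCAAT was in 34.6% and 30.8%, and CCGCCC in 44.95% and 72.5%. These shares are descriptions of short windows around annotated starts, and a motif outside them would not be seen. Of the 17 called genes with windows, 5 held AGGTCA (16.7% of their windows), beside 9 of the 59 guidance genes and 4513 of 27305 genes overall. The 3 stretches around it that lie outside exons are shown, each on the strand of its gene with AGGTCA or its reverse complement in capitals.
*SEMA5B* (called higher), chr3:123028732-123028797, minus strand: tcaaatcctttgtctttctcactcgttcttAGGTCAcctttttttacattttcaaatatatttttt
*EFNA4* (called higher), chr1:155063490-155063547, plus strand: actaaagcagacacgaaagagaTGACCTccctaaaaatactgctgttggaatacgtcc
*SEMA3F* (called lower), chr3:50158923-50158988, plus strand: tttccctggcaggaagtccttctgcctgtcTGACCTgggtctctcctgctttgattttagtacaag
The *SEMA5B* stretch reads AGGTCA in the direction of transcription, and the *EFNA4* and *SEMA3F* stretches hold it reversed. The *SEMA5B* and *EFNA4* stretches lie upstream of their genes. The *SEMA3F* stretch lies inside its gene, which starts at chr3:50155045, before an internal transcript start. AGGTCA thus stood before annotated starts of genes called in either direction.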

How the data were processed

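RNA-seq of 3 GFP and 3 Flag-ERRg libraries was analysed. Total RNA was depleted of ribosomal RNA and made into strand-preserving libraries, and per the submitters' processing notes reads were trimmed with Trim Galore 0.6.7, aligned with STAR 2.7.9a to GRCh38 and counted with HTSeq 0.11.3. The strand setting and annotation release are not given in the sources used here. The deposited values are raw counts per Ensembl gene. Groups were taken from the labels.

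Identifiers were matched to GENCODE release 44 (90.1% of 67060), which gave symbols, positions and exon lengths. Genes that passed filterByExpr were scaled by TMM and tested with edgeR 4.0.16 in R 4.3.3, quasi-likelihood, all 6 libraries, no covariate, with BH adjustment over 24500 genes. Standard errors were taken as |log2 fold change| divided by the root of F. Log values used a prior count of 2. The test was checked on simulated data.

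All called guidance genes are given, with defining receptors (NRP1, NRP2, DCC, ROBO1, ROBO2 and the A-class plexins) whether called or not. Of the intracellular partners and of the further guidance cues, the 4 called genes with the largest change are given for each list. Uncalled genes outside this rule and DPYSL5 were named after their values were seen. Cell type markers were not named by this rule. Members and lists were chosen with earlier results of these data known. Alternatives were DESeq2 1.42.0, other size factors, filters and limits, each library left out, the replicate block, smooth curves for GC and length (mgcv 1.9.3), the unassigned-read share as a model term, and protein-coding genes alone; Flag-ERRg replicate 2 alone against GFP was added after seeing the data.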

Additional observations from a re-analysis of the deposited data

How the results depend on the processing

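The direction of all 20 called guidance genes held under all 20 alternatives, except that *NTN5* was not tested with at least 10 counts in every library. The counts of 12 higher and 8 lower became 6 and 16 when scaled by library size alone, 19 and 13 (32 in all) without a fold limit, 5 and 2 (7 in all) with a 2-fold limit, and 6 and 3 (9 in all) in the test against a 1.5-fold threshold. After the GC and length correction 13 were called lower, or 14 when a replicate block joined that correction. Leaving out each library gave 10 to 16 higher, 5 to 10 lower and 18 to 23 in all, with the lowest number called lower, 5, without GFP replicate 4. Over all genes, 8351 calls became 3934 with the 2-fold limit, 3594 against the 1.5-fold threshold, 3096 with the unassigned-read share as a model term, 5282 with protein-coding genes alone (fewer genes tested) and 4586 with Flag-ERRg replicate 2 alone, and 6738 to 10961 with a library left out. The replicate block alone gave 14 guidance genes higher, 6 lower and 10435 calls over all genes, but the labels do not say that the replicate numbers pair samples, and the deviations of same-numbered libraries correlated at 0.075 (replicate 3) and −0.0001 (replicate 4).

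The median log2 fold change of the guidance genes, 0.0844, was −0.22 with library size only, −0.0894 after the GC and length correction, −0.12 with the block added and −0.0470 with protein-coding genes alone, and 0.0602 to 0.15 with a library left out. The log2 fold change of *ESRRG* was 2.96 to 3.26 with a library left out.

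Several uncalled genes changed sign. With library size only, *PLXNA1* was −0.18, *PLXNA2* −0.12 and *SLIT3* −0.32. After the GC and length correction *ROBO2* was 0.19, *PLXNA1* −0.24 and *SLIT3* −0.16, and with the replicate block added 0.32, −0.31 and −0.16, with *PLXNA2* at −0.0482. *PLXNA4* was 0.0241 under DESeq2 and 0.0105 under RLE, and −0.108 to 0.0595 with a library left out, positive without Flag-ERRg replicate 2. *SLIT2* was 0.00507 with DESeq2, 0.0887 with the added term and 0.0356 with replicate 2 alone. *SLIT3* was also −0.0247 with at least 10 counts in every library, −0.0994 with the added term, −0.13 with protein-coding genes and −0.0537 with replicate 2 alone, and −0.0376 to 0.14 with a library left out, negative without GFP replicate 4 or Flag-ERRg replicate 4. *NTN1* was −0.27 to 0.0519 with a library left out, positive without Flag-ERRg replicate 2 or 4, and *EFNB3* was −0.0159 with the added term. The cause of these changes was not tested. Of the other single-gene values under alternatives, 77 lost their call, 43 gained it and 773 kept their side. Low counts limit *NTN5*, *SEMA3G* and *NTN1* most, and 3 against 3 libraries allow no two-sided permutation p below 0.1.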

Other observations

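A further list of 37 guidance cues, co-receptors and adhesion receptors outside the families above had 32 tested genes, with a median log2 fold change of −0.19. Of these, 4 were called higher and 9 lower (40.6%, beside 34.1% of all tested and 38.3% of protein-coding genes). By direction, 17.3% of all tested genes were called higher and 16.8% lower (25.9% and 12.4% of protein-coding ones). *NGFR*, the low-affinity neurotrophin receptor and a co-receptor of myelin inhibitors, had 127, 158 and 167 counts with GFP and 10, 18 and 25 with Flag-ERRg (log2 −3.12, SE 0.24, edgeR quasi-likelihood BH-adjusted p = 1.2e-05). *LINGO1*, which can form a receptor complex with NGFR, had 23, 16 and 24 counts with GFP and 117, 140 and 185 with Flag-ERRg (log2 2.76, SE 0.23, edgeR BH-adjusted p = 2.1e-05). Both showed no overlap, in opposite directions. *CXCL12*, a chemokine that guides migrating neurons, had 50, 60 and 62 counts with GFP and 9, 3 and 17 with Flag-ERRg (log2 −2.58, SE 0.39, edgeR BH-adjusted p = 4.6e-04). *RELN*, the secreted positioning cue reelin, had 650, 642 and 684 counts with GFP and 170, 183 and 201 with Flag-ERRg (log2 −1.87, SE 0.12, edgeR BH-adjusted p = 3.4e-06). Calls of these 4 genes held under every alternative in which they were tested.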
